A study of Rattus norvegicus with 12 samples.

Results

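The 9 genes described here encode proteins of the smooth muscle contractile apparatus and its control: Acta2, Tpm1, Tpm2, Tagln, Cnn1, Myh11, Myl9, Myocd and Des. They were chosen by name, with earlier results of these data known. All 9 were among the 17315 genes counted in the series, and all 9 passed the filter on low counts that left 11321 genes for testing. Myocd passed it only through the SIRMu-1 and primary libraries, since its rMC-1 libraries held 1 or 2 reads each. Cnn1 also had few reads in rMC-1, at 16 to 20 per library.

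RNA was sequenced from 12 cultures of Sprague-Dawley rat cells that the labels call Müller cells, the radial glia spanning the retina. The series was made to characterize the line SIRMu-1 against primary cells and against an established line. SIRMu-1, with 5 libraries at passages 6, 11, 11, 11 and 20, arose from retinas of pups at postnatal days 2 to 4 and was immortalized spontaneously, with no transgene. The rMC-1 line, with 3 libraries at passages 23, 26 and 26, came from adult rats and carries the SV40 large T antigen. The primary cultures, with 4 libraries at passages 4, 4, 3 and 3, came from pups of the same age as those behind SIRMu-1. Every culture had 25 mM glucose. Serum was 20% for SIRMu-1 and primary cultures and 10% for rMC-1. Gentamicin at 87 mg/L and amphotericin B at 2.2 mg/L were given to SIRMu-1 replicates 3 and 5 and to all primary cultures, and to no rMC-1 culture. Donor age, serum, drugs, passage and the route to immortality therefore differ together between rMC-1 and the primary cultures, and their parts cannot be told apart.

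Smooth muscle contracts when myosin II, whose heavy chain is encoded by Myh11, pulls on thin filaments of alpha smooth muscle actin wrapped in tropomyosin. Most genes of this machinery are switched on together by serum response factor (SRF) bound to short DNA elements called CArG boxes, with myocardin as its coactivator. Alpha smooth muscle actin in a cell that is not smooth muscle marks a myofibroblast-like state, and Müller cells are known to gain it in culture and in retinal scars.

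Levels are in CPM, which puts the counts of each library on 1 common depth by TMM factors (edgeR's correction for library composition), and differences as log2 fold changes ± standard error. A gene was called at an edgeR adjusted p under 0.05. Gene counts came to 26349346 to 36730443 per SIRMu-1 library, 27351014 to 38125630 per rMC-1 library and 22582345 to 29812705 per primary library. The TMM factors were 1.255 to 1.284 in rMC-1 and 0.839 to 1.006 in the other libraries. Of 15 Müller glia markers, Sox2, Aqp4, Kcnj10 and Car2 had 0 counts in every SIRMu-1 library, and Aqp4, Car2 and Abca8a had 0 in every rMC-1 library. The summed level of the 15 markers was 3536 to 4757 CPM in SIRMu-1, 1794 to 2080 CPM in rMC-1 and 7350 to 8964 CPM in primary libraries, with vimentin (Vim) averaging 3540, 1367 and 6207 CPM of it in that order. Of all genes tested, 24.4% were lower and 21.7% higher in SIRMu-1 against primary cultures, and 38.9% and 31.9% in rMC-1. Of 13 markers tested, 7 were lower and 0 higher in SIRMu-1 against primary cultures, and 8 were lower and 3 higher in rMC-1. The 3, named like Sox2 after their values were seen, were Lhx2, a retinal progenitor and Müller cell factor, at 45.3 CPM against 3.77 CPM in primary cultures, Rlbp1, a retinoid-binding protein, at 0.91 against 0.0654 CPM, and Hes1, a Notch target, at 381 against 149 CPM (edgeR adjusted p = 0.000158, 0.000276 and 0.0253). The Hes1 call was lost without primary replicate 1 or 2 or rMC-1 replicate 2 (adjusted p = 0.0635, 0.0635 and 0.0922). Sox2, a stem and glial cell factor, averaged 14.9 CPM in rMC-1 and 2.49 CPM in primary cultures and was not called (edgeR adjusted p = 0.0596). Among the 8 lower in rMC-1 were Sox9, Dkk3 and Apoe, at 0.0358, 0.996 and 5.75 CPM. In primary cultures they averaged 52.2, 1224 and 224 CPM (edgeR adjusted p = 9.74e-07, 6.39e-07 and 6.64e-07). Sox9, with 4 counts in rMC-1, could pass the filter only through libraries outside rMC-1. Car2, with 0 counts in both lines, and Abca8a, with 0 in rMC-1 and 25 in SIRMu-1, could pass only through primary libraries. Rlbp1, with 6 counts in primary cultures and 22 in SIRMu-1, could pass only through rMC-1. All SIRMu-1 libraries come from 1 line, and so do all rMC-1 libraries. P-values therefore measure how far these libraries spread, part of which could be technical.

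The upstream sequences of 3 members are shown because they hold, or lack, near matches to the CArG box, the element that the group is known for. RefSeq on assembly GRCr8 gave a window from 250 bases before to 50 after the start for 5 of the 9 members, Acta2, Tpm1, Tpm2, Cnn1 and Des. None was given for Tagln, Myh11, Myl9 or Myocd. Capitals mark stretches that differ from the 10-letter CArG box by 1 letter, searched on both strands. The Acta2 window is chr1:241172454-241172753 (minus strand), that of Tpm1 is chr8:76543366-76543665 (minus strand) and that of Cnn1 is chr8:28908187-28908486 (plus strand).
Acta2: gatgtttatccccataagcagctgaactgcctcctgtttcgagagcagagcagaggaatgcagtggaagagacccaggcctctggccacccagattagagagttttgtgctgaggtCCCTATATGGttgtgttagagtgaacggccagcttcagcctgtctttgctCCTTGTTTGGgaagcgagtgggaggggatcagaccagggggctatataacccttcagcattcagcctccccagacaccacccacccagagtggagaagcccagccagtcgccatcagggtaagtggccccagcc
Tpm1: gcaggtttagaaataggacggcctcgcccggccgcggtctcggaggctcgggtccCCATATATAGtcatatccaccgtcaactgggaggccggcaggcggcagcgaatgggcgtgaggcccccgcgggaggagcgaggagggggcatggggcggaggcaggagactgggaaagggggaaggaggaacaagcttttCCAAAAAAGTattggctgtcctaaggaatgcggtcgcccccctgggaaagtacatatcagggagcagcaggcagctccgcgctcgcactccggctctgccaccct
Cnn1: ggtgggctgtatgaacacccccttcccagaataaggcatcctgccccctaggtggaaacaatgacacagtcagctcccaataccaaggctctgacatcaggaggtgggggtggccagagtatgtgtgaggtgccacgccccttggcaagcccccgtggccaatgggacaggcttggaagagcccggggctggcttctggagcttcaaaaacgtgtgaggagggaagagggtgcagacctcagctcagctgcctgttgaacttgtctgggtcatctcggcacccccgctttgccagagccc

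No window of the 5 members held an exact CArG box, which 1.64% of all 33469 rat promoter windows did. With 1 mismatch allowed, 2 of the 5 held one, against 21.3% of all windows. Acta2 had CCCTATATGG at position -134 from the start and CCTTGTTTGG at -84. Tpm1 had CCATATATAG at -195 and CCAAAAAAGT at -55. The Cnn1, Tpm2 and Des windows held none. A match describes letters in this window only.

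Most of the 9 genes were far lower in rMC-1 than in the primary cultures. Between SIRMu-1 and primary cultures, 7 of the 9 did not pass the test. Against primary cultures, rMC-1 was lower in 8 of the 9 genes and higher in 0, with a median log2 fold change of -3.27 beside -0.15 over all genes tested. Of all genes, 38.9% were called lower in that comparison and 31.9% higher. In SIRMu-1, 2 of the 9, Myh11 and Myl9, were lower than in primary cultures and 0 were higher, with a median of 0.26 beside -0.02. Of all genes, 24.4% were called lower there and 21.7% higher. Set against rMC-1, SIRMu-1 was higher in 6 of the 9 and lower in 0, with a median of 2.47 beside 0.03, where 32.7% of all genes were called higher and 30.5% lower. Myocd could pass the filter only where it is high, so it had to differ from rMC-1. Cnn1, with 16 to 20 reads per rMC-1 library, was not bound in this way but was also near 0 there. Without Cnn1 and Myocd, 6 of 7 members were lower in rMC-1 (median -2.68). Of those 7, 4 were higher in SIRMu-1 than in rMC-1 (median 2.18), and 2 were lower in SIRMu-1 than in primary cultures (median -0.07). The 3 comparisons share their libraries, so they are not independent of each other. In these bulk libraries, fewer cells that express a gene and less RNA per cell cannot be told apart.

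**Figure D1:**
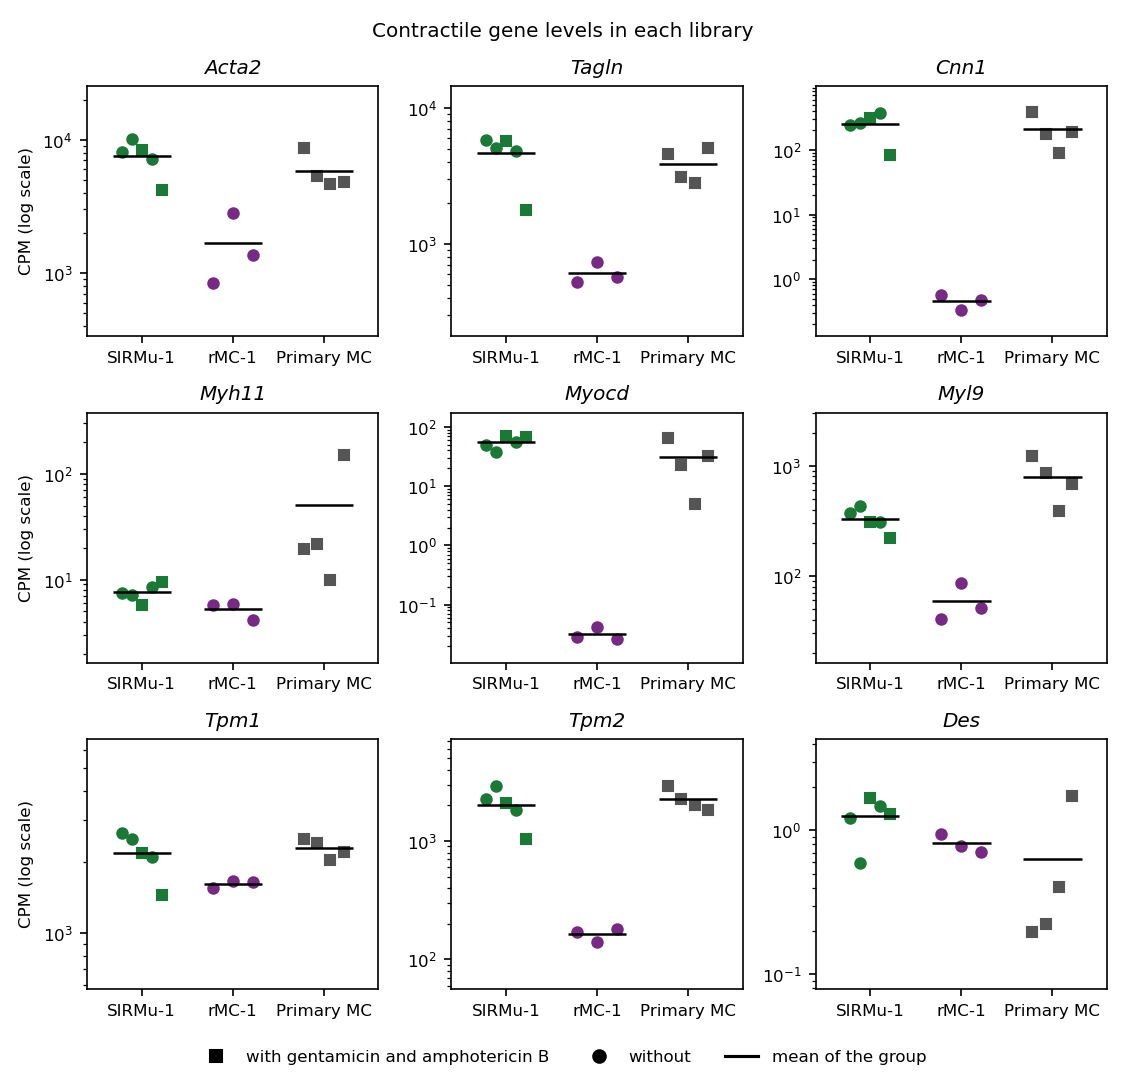
Level of each of the 9 genes in every library, in CPM on the TMM scale with a log axis. Points are libraries of SIRMu-1 (5), rMC-1 (3) and primary cultures (Primary MC, 4), and bars are group means. Cnn1 and Myocd lie below 1 CPM in every rMC-1 library, and Tpm1 stays within 1440 to 2655 CPM in all 12.

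Together the 9 genes took 1.83%, 1.84%, 1.76%, 1.55% and 0.886% of gene counts in SIRMu-1 replicates 1 to 5. They took 0.402%, 0.691% and 0.479% in rMC-1 and 1.87%, 1.27%, 1.01% and 1.5% in primary cultures. The share was lower in each rMC-1 library than in any other, and SIRMu-1 replicate 5 lay below all primary libraries.

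Of the thin filament genes, Acta2 encodes alpha smooth muscle actin. Its level was 8084, 10129, 8443, 7204 and 4203 CPM in SIRMu-1, 842, 2812 and 1374 CPM in rMC-1, and 8634, 5335, 4664 and 4811 CPM in primary cultures. Each rMC-1 library lay below every other library, while SIRMu-1 and primary libraries overlapped. Acta2 averaged 1676 ± 1019 CPM in rMC-1 and 5861 ± 1871 CPM in primary cultures (SD, n = 3 and 4), a log2 difference of -1.81 ± 0.42 (edgeR adjusted p = 0.00232). The rMC-1 line thus kept 0.286 of the primary level in the fit, and its highest library was 3.34 times its lowest. Between SIRMu-1, at 7613 ± 2181 CPM (SD, n = 5), and primary cultures the log2 fold change was 0.38 ± 0.35 (edgeR adjusted p = 0.406). SIRMu-1 was higher than rMC-1 by 2.18 ± 0.42 on the log2 scale (edgeR adjusted p = 0.000762). The coding sequence of Acta2 is nearly identical to that of the enteric smooth muscle actin gene Actg2, and reads that mapped to more than 1 place were not counted, so both counts are uncertain.

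Tpm1 and Tpm2 encode alpha and beta tropomyosin, coiled coils that lie along actin and gate its access to myosin. Both make muscle and non-muscle isoforms, which gene counts do not separate. Tpm2 stood at 2273, 2889, 2086, 1835 and 1035 CPM in SIRMu-1, 171, 140 and 179 CPM in rMC-1, and 2899, 2278, 2024 and 1832 CPM in primary cultures. Every rMC-1 library was below all others, and the other groups overlapped. Tpm2 averaged 163 ± 20.6 CPM in rMC-1 and 2258 ± 465 CPM in primary cultures (SD, n = 3 and 4), with a log2 difference of -3.79 ± 0.33 (edgeR adjusted p = 1.62e-06). SIRMu-1 exceeded rMC-1 by 3.63 ± 0.32 on the log2 scale (edgeR adjusted p = 2.89e-06), and its log2 fold change against primary cultures was -0.16 ± 0.25 (edgeR adjusted p = 0.628).

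Tpm1 moved far less than Tpm2. It stood at 2655, 2498, 2184, 2100 and 1440 CPM in SIRMu-1, 1549, 1654 and 1641 CPM in rMC-1, and 2506, 2407, 2030 and 2205 CPM in primary cultures. The rMC-1 libraries lay below all primary libraries, but within the SIRMu-1 range. The log2 fold change in rMC-1 against primary cultures was -0.5 ± 0.19 (edgeR adjusted p = 0.031), beside -0.15 for the median gene. That call was lost with library totals in place of TMM factors, at -0.03 (edgeR adjusted p = 0.879), with libraries of 1 file-name code summed (-0.35, adjusted p = 0.153), and with no filter on low counts (-0.48, adjusted p = 0.0502). It was also lost without primary replicate 1 (-0.46, adjusted p = 0.067) or 2 (-0.48, adjusted p = 0.0554) and without rMC-1 replicate 1 (-0.4, adjusted p = 0.134), 2 (-0.44, adjusted p = 0.103) or 3 (-0.44, adjusted p = 0.112). Between SIRMu-1 and rMC-1 Tpm1 did not pass the test (0.43 ± 0.18, edgeR adjusted p = 0.0548), nor did it between SIRMu-1 and primary cultures (-0.07 ± 0.16, edgeR adjusted p = 0.742). With library totals the SIRMu-1 difference from rMC-1 turned to -0.03.

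The ratio of Tpm1 to Tpm2 counts within a library does not depend on the scaling between libraries. This ratio was picked after the values were seen, so it is described without a test. It was 1.17, 0.865, 1.05, 1.14 and 1.39 in SIRMu-1, 9.07, 11.8 and 9.17 in rMC-1, and 0.864, 1.06, 1.0 and 1.2 in primary cultures. The rMC-1 ratios, at 10.0 ± 1.55 (SD, n = 3), lay apart from those of the other groups, which overlapped.

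**Figure D2:**
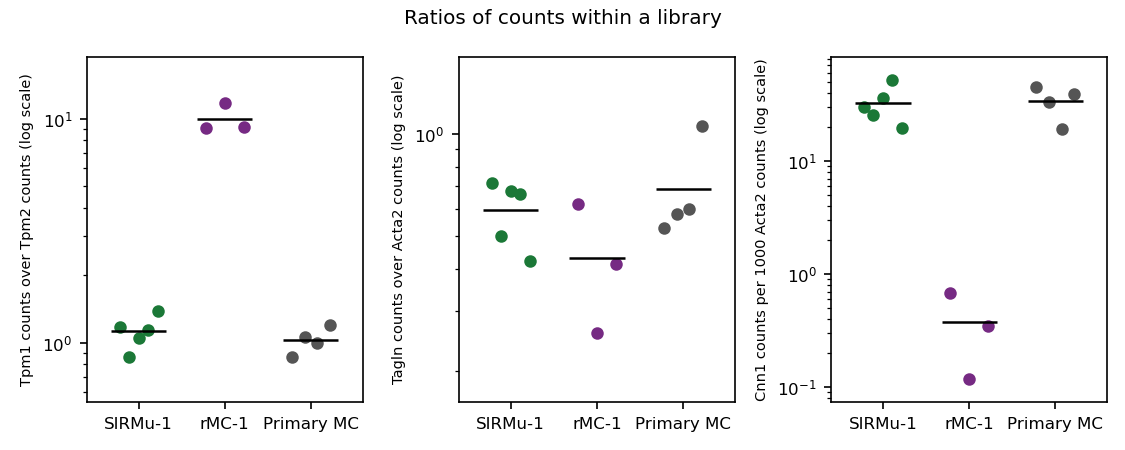
Ratios of counts within each library, on log axes, for Tpm1 over Tpm2, Tagln over Acta2 and Cnn1 per 1000 counts of Acta2. Points are libraries in SIRMu-1, rMC-1 and primary cultures (Primary MC), and bars are group means; gene length enters each ratio, so only its change between groups can be read. The rMC-1 libraries stand apart for Tpm1 over Tpm2 (9.07 to 11.8) and for Cnn1 over Acta2 (0.117 to 0.677), and overlap the others for Tagln over Acta2.

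Of the thin filament regulators, Tagln encodes transgelin (SM22), an actin-bundling protein of early smooth muscle. Tagln reached 5786, 5068, 5727, 4791 and 1779 CPM in SIRMu-1, 522, 729 and 567 CPM in rMC-1, and 4570, 3091, 2792 and 5032 CPM in primary cultures. All rMC-1 libraries were below the rest, and SIRMu-1 replicate 5 was below every primary library. Tagln averaged 606 ± 109 CPM in rMC-1 and 3871 ± 1097 CPM in primary cultures (SD, n = 3 and 4), a log2 difference of -2.68 ± 0.39 (edgeR adjusted p = 8.12e-05). It was higher in SIRMu-1 than in rMC-1 by 2.93 ± 0.39 on the log2 scale (edgeR adjusted p = 5.22e-05). Against primary cultures the SIRMu-1 difference was 0.26 ± 0.31 (edgeR adjusted p = 0.525). Tagln counts per Acta2 count overlapped among the groups, at 0.423 to 0.716 in SIRMu-1, 0.259 to 0.62 in rMC-1 and 0.529 to 1.05 in primary cultures.

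Cnn1 encodes calponin 1, which binds actin and slows its sliding over myosin in differentiated smooth muscle. Cnn1 was at 241, 257, 308, 375 and 82.9 CPM in SIRMu-1, 0.57, 0.33 and 0.474 CPM in rMC-1, and 389, 179, 88.7 and 188 CPM in primary cultures. The rMC-1 line was nearly devoid of it, with 54 counts over 3 libraries against 20910 over the 4 primary libraries. The scaled ratio of rMC-1 to primary cultures was 0.00206 (exact 95% interval of the counts 0.00155 to 0.00269, counting error only). The fitted log2 fold change was -8.86 ± 0.76 (edgeR adjusted p = 1.44e-06). SIRMu-1 was higher than rMC-1 by 9.12 ± 0.76 on the log2 scale (edgeR adjusted p = 1.86e-06), and its log2 fold change against primary cultures was 0.26 ± 0.43 (edgeR adjusted p = 0.651). Cnn1 was lower in rMC-1 by more than Acta2 was: per 1000 Acta2 counts there were 32.7 ± 12.4 Cnn1 counts in SIRMu-1, 0.38 ± 0.282 in rMC-1 and 34.2 ± 11.2 in primary cultures (SD, n = 5, 3 and 4). The rMC-1 libraries stood apart in that ratio too, which was picked after the values were seen and not tested.

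Of the myosin genes, Myh11 encodes the smooth muscle myosin heavy chain, the marker most restricted to smooth muscle. Myh11 was low in both lines, at 7.5, 7.17, 5.78, 8.43 and 9.44 CPM in SIRMu-1 and 5.73, 5.83 and 4.11 CPM in rMC-1. In primary cultures it was 19.5, 21.9, 9.93 and 151 CPM. On the TMM scale all libraries of the lines lay below all primary libraries. Replicate 4 stood far above the other primary cultures, at 15.2 times the lowest. Against primary cultures the log2 fold change was -2.72 ± 0.65 in SIRMu-1 (edgeR adjusted p = 0.00539) and -3.27 ± 0.82 in rMC-1 (edgeR adjusted p = 0.00352). Without primary replicate 4 the differences shrank to -1.16 in SIRMu-1 (edgeR adjusted p = 0.00455) and -1.72 in rMC-1. Myh11 was the 1 member with no overlap between SIRMu-1 and primary libraries, where 18.1% of all genes were lower without overlap. That gap was narrow, from 9.44 CPM in SIRMu-1 replicate 5 to 9.93 CPM in primary replicate 3. With library totals the 2 libraries stood at 9.46 and 8.33 CPM, so the groups overlapped. Between SIRMu-1 and rMC-1 the difference did not pass the test (0.55 ± 0.71, edgeR adjusted p = 0.519), with overlapping libraries.

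Myl9 encodes a regulatory light chain of smooth muscle and non-muscle myosin, whose phosphorylation starts contraction. Myl9 was 369, 430, 310, 308 and 222 CPM in SIRMu-1, 40.8, 85.8 and 50.7 CPM in rMC-1, and 1216, 859, 391 and 680 CPM in primary cultures. The order was primary cultures above SIRMu-1 above rMC-1, although primary replicate 3 fell inside the SIRMu-1 range. Myl9 averaged 328 ± 77.7 CPM in SIRMu-1 and 787 ± 345 CPM in primary cultures (SD, n = 5 and 4), a log2 difference of -1.26 ± 0.32 (edgeR adjusted p = 0.00667). With libraries of 1 file-name code summed, neither Myl9 nor Myh11 was called in SIRMu-1 against primary cultures (edgeR adjusted p = 0.0915 and 0.112). Myl9 in rMC-1 was lower than in primary cultures by more, at -3.73 ± 0.42 (edgeR adjusted p = 1.05e-05). SIRMu-1 exceeded rMC-1 by 2.47 ± 0.38 on the log2 scale (edgeR adjusted p = 0.000168).

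Myocd encodes myocardin, the coactivator that gives SRF its smooth muscle targets. Myocd was 49.3, 37.5, 69.5, 56.5 and 67.8 CPM in SIRMu-1. In rMC-1 it was 0.0285, 0.0412 and 0.0263 CPM, from 1, 2 and 1 reads, against 64.1, 22.3, 4.92 and 32.4 CPM in primary cultures. The rMC-1 libraries summed to 4 counts against 3066 in the primary libraries, a scaled ratio of rMC-1 to primary cultures of 0.00104 (exact 95% interval 0.000284 to 0.00267). The fitted log2 fold change of -9.71 ± 1.05 (edgeR adjusted p = 6.92e-06) depends on the prior count, and was -9.08 without primary replicate 1. SIRMu-1, with 7788 counts, stood above rMC-1 by a scaled ratio of 1677 (exact 95% interval 655 to 6158), fitted as 10.57 ± 1.05 on the log2 scale (edgeR adjusted p = 6.05e-06). Primary cultures were spread 13.0-fold, and SIRMu-1 lay inside that spread except for replicates 3 and 5, which were above it. The SIRMu-1 difference from primary cultures was 0.86 ± 0.5 (edgeR adjusted p = 0.182), and was called without primary replicate 1 (1.49, edgeR adjusted p = 0.0257).

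Des encodes desmin, the muscle intermediate filament. Des was barely expressed anywhere, with 1.21, 0.598, 1.69, 1.48 and 1.31 CPM in SIRMu-1, 0.94, 0.783 and 0.711 CPM in rMC-1, and 0.197, 0.225, 0.402 and 1.72 CPM in primary cultures. The groups overlapped, and primary replicate 4 was above every other library. Des passed neither test against primary cultures, at 0.99 ± 0.6 in SIRMu-1 (edgeR adjusted p = 0.198) and 0.36 ± 0.67 in rMC-1 (edgeR adjusted p = 0.64). Between SIRMu-1 and rMC-1 the difference was 0.63 ± 0.64 (edgeR adjusted p = 0.409). Without primary replicate 4, Des was called higher in both lines, by 2.18 in SIRMu-1 (edgeR adjusted p = 0.00226) and 1.55 in rMC-1 (edgeR adjusted p = 0.00961).

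**Figure D3:**
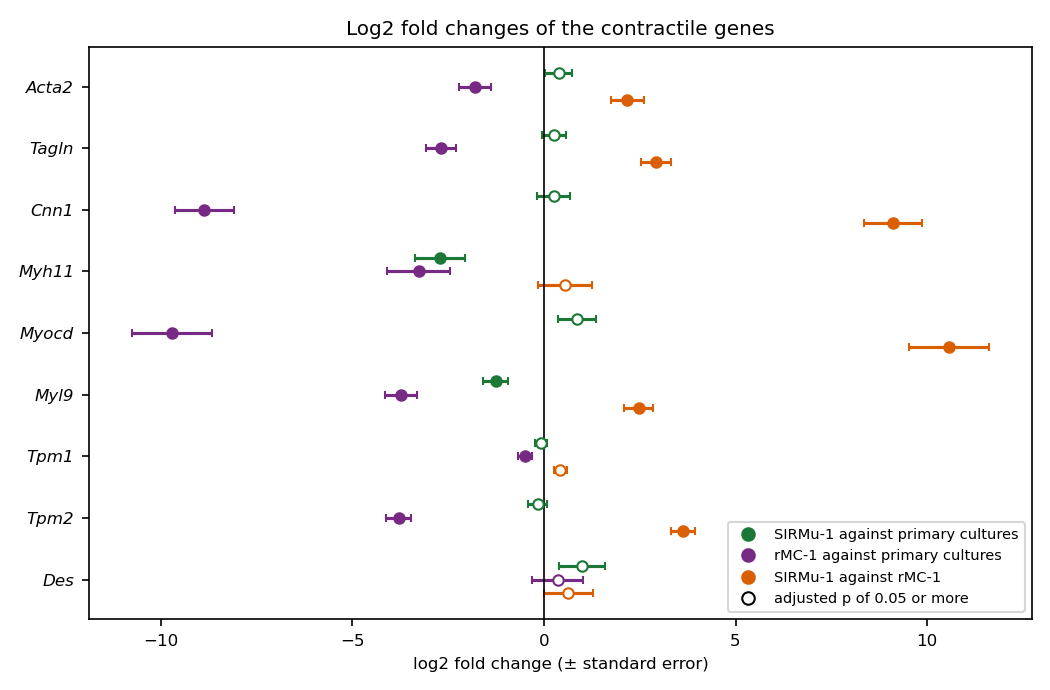
Log2 fold change of each of the 9 genes in SIRMu-1 against primary cultures, rMC-1 against primary cultures and SIRMu-1 against rMC-1, with bars of ± 1 standard error; filled points passed an edgeR adjusted p under 0.05. The rMC-1 values run from -9.71 for Myocd to 0.36 for Des, while 7 of the 9 SIRMu-1 values against primary cultures did not pass.

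Groups without overlap gave the same count of genes in rMC-1 as the test. In rMC-1 against primary cultures, 8 of the 9 members had no overlap, all lower, where 38.2% of all genes were lower without overlap. In SIRMu-1 against rMC-1, 6 of the 9 had none, all higher in SIRMu-1, where 32% of all genes were higher without overlap.

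Within SIRMu-1, replicate 5, the library at passage 20, was lowest of the 5 for Acta2, Tagln, Cnn1, Myl9, Tpm1 and Tpm2. It was not low for the others: its Myh11 of 9.44 CPM was the highest, and its Myocd of 67.8 CPM the second highest. Leaving it out moved the log2 fold change against primary cultures to 0.51 for Acta2, 0.44 for Tagln and 0.46 for Cnn1, none of them called (edgeR adjusted p = 0.243, 0.0942 and 0.321). That library also had gentamicin and amphotericin B. SIRMu-1 replicate 3, with the same drugs at passage 11, had 8443 CPM of Acta2, 5727 of Tagln and 308 of Cnn1. The undrugged replicates 2 and 4, also at passage 11, had 10129 and 7204 CPM of Acta2, 5068 and 4791 of Tagln and 257 and 375 of Cnn1. Passage 20 had 1 library, which had the drugs, so passage and drugs cannot be told apart in it. A part of passage was not tested. Between the 2 SIRMu-1 libraries with the drugs and the 3 without, edgeR called 0 of the 9 members and 0% of 11636 genes, with 433 genes and 0 members at an unadjusted p under 0.05. Without replicate 3, these were 1484 genes and 4 members, with 2 genes and 0 members called, and without replicate 5 they were 76 genes and 0 members. DESeq2 called 4 genes, 0 of them members, with 1 member at an unadjusted p under 0.05. Myocd was the 1 member without overlap there, at 69.5 and 67.8 CPM with the drugs and 49.3, 37.5 and 56.5 CPM without them, where 15.8% of all genes had none. Its log2 fold change was 0.52 ± 0.67 (edgeR adjusted p = 0.986).

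Other genes of the contractile apparatus were read from a list of 32 partners, of which 30 were in the tables and 28 were tested. In rMC-1, 14 of the 28 lay lower than in primary cultures and 1 lay higher, where 38.9% and 31.9% of all genes did. The median log2 fold change was -0.8 beside -0.15 for all genes. Itga8, Pgm5, Ppp1r14a and Kcnmb1 held 9, 12, 3 and 0 counts in rMC-1. They could pass the filter only through libraries outside rMC-1, where they are higher. Mylk, with 61 counts and a lowest library of 0.199 CPM in rMC-1, could not pass through rMC-1 alone. In SIRMu-1, 5 were lower than in primary cultures and 4 higher, where 24.4% and 21.7% of all genes were. The median there was 0.19 beside -0.02. SIRMu-1 exceeded rMC-1 in 15 and was lower in 0, where 32.7% of all genes were higher and 30.5% lower. The 1 higher in rMC-1 became 7 with library totals, 3 without primary replicate 1, and 2 without primary replicate 2, SIRMu-1 replicate 5 or rMC-1 replicate 1 or with codes summed. The 5 and 4 in SIRMu-1 became 2 and 1 with only its libraries that had the drugs or with codes summed. Itga8, an integrin subunit of vascular smooth muscle, averaged 696 ± 190 CPM in SIRMu-1, 0.0754 ± 0.0122 CPM in rMC-1 and 222 ± 189 CPM in primary cultures (SD, n = 5, 3 and 4). Its log2 fold change against primary cultures was 1.65 ± 0.44 in SIRMu-1 (edgeR adjusted p = 0.0097) and -11.47 ± 0.87 in rMC-1 (edgeR adjusted p = 6.17e-07). Without primary replicate 3 these became 2.43 and -10.69, and the SIRMu-1 call was lost with only its libraries that had the drugs (1.6, edgeR adjusted p = 0.0642) and with codes summed (1.5, edgeR adjusted p = 0.139).

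Actg2 ranged from 73.9 to 259 CPM in SIRMu-1, from 0.29 to 0.655 CPM in rMC-1 and from 1.88 to 780 CPM in primary cultures. Its log2 fold change in rMC-1 was -9.05 ± 1.71 (edgeR adjusted p = 0.000539), and -7.34 without primary replicate 1. Pgm5, a protein of actin attachment sites, was lower in rMC-1 at -8.49 ± 1.14 on the log2 scale (edgeR adjusted p = 4.08e-05), and at -7.12 without primary replicate 3. Tpm3, a tropomyosin of non-muscle and slow muscle cells, was higher in rMC-1 by 0.68 ± 0.23 (edgeR adjusted p = 0.0177). In SIRMu-1 another tropomyosin gene, Tpm4, was higher by 0.52 ± 0.1 (edgeR adjusted p = 0.00194), and Hspb6, a small heat shock protein that relaxes smooth muscle, was lower at -1.56 ± 0.28 (edgeR adjusted p = 0.000885). The Hspb6 call was lost with codes summed (-1.32, edgeR adjusted p = 0.0667).

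Lmod1, Mylk and Smtn were picked for mention after their values were seen. Lmod1, leiomodin 1, which nucleates actin filaments in smooth muscle, averaged 176 ± 33.6 CPM in SIRMu-1, 0.858 ± 0.618 CPM in rMC-1 and 170 ± 74.7 CPM in primary cultures (SD, n = 5, 3 and 4). Its log2 fold change in rMC-1 was -7.59 ± 0.58 (edgeR adjusted p = 6.46e-07; -8.31 when rMC-1 replicate 2 was left out), and in SIRMu-1 0.05 ± 0.35 (edgeR adjusted p = 0.921). Mylk, the kinase that phosphorylates the light chain encoded by Myl9, averaged 4.73 ± 6.28 CPM in SIRMu-1, 0.468 ± 0.295 CPM in rMC-1 and 31.4 ± 36.9 CPM in primary cultures. It was called lower in rMC-1 (-6.02 ± 1.4, edgeR adjusted p = 0.00223; -4.81 without primary replicate 2). Its SIRMu-1 value of -2.73 ± 0.95 (edgeR adjusted p = 0.0339) became -1.51 without primary replicate 2 (adjusted p = 0.193) and -4.05 without SIRMu-1 replicate 5. It also missed the threshold without SIRMu-1 replicate 1, 2, 3 or 4 (adjusted p = 0.0725, 0.0627, 0.0716 and 0.0738). Smtn, the actin-binding smoothelin, did not pass in rMC-1 (0.38 ± 0.25, edgeR adjusted p = 0.181) or in SIRMu-1 (0.5 ± 0.22, edgeR adjusted p = 0.0818), but passed in SIRMu-1 without primary replicate 1 (adjusted p = 0.0404) or SIRMu-1 replicate 2 (adjusted p = 0.0191).

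**Figure D4:**
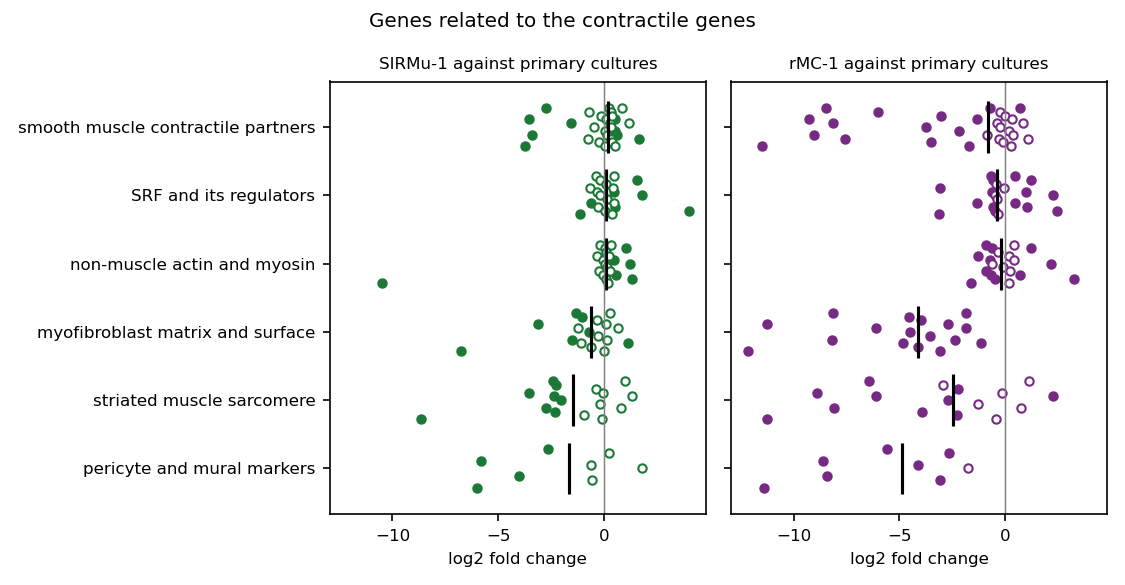
Log2 fold changes of genes in 6 related lists, in SIRMu-1 and in rMC-1 against primary cultures. Each point is a tested gene, filled where it passed an edgeR adjusted p under 0.05, and vertical bars are list medians. The median of the 17 myofibroblast matrix and surface genes is -0.62 in SIRMu-1 and -4.14 in rMC-1.

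Of 20 tested regulators of SRF, 8 were lower and 7 higher in rMC-1 against primary cultures, shares near the 38.9% and 31.9% of all genes, with a median of -0.41 beside -0.15. In SIRMu-1, 2 were lower and 5 higher, where 24.4% and 21.7% of all genes were, with a median of 0.09 beside -0.02. The count lower in rMC-1 was 3 with library totals, and the count higher was 3 without primary replicate 1. The 2 lower in SIRMu-1 were 4 without primary replicate 3 or with DESeq2. Srf itself was higher in rMC-1, where Myocd was nearly absent, at 221 ± 35.3 CPM against 95.4 ± 8.78 CPM in primary cultures (SD, n = 3 and 4; log2 fold change 1.21 ± 0.18, edgeR adjusted p = 9.25e-05). In SIRMu-1 Srf averaged 136 ± 27.2 CPM, higher than in primary cultures by 0.52 ± 0.16 (edgeR adjusted p = 0.0206). That call was lost without primary replicate 3 (adjusted p = 0.0558) or SIRMu-1 replicate 3 (adjusted p = 0.0507). Fhl1 and Fhl2, LIM-domain partners of transcription factors, were both lower in rMC-1, at -3.11 ± 0.43 and -3.15 ± 0.44 (edgeR adjusted p = 5.67e-05 and 5.64e-05). In SIRMu-1, Fhl1 was higher by 1.57 ± 0.35 (edgeR adjusted p = 0.0037) and Fhl2 was lower at -1.12 ± 0.34 (edgeR adjusted p = 0.0181), with 52.2 to 175 CPM of Fhl2 in SIRMu-1 and 161 to 241 CPM in primary cultures, which overlap. The Fhl2 call in SIRMu-1 was lost with only its libraries that had the drugs (-0.85, edgeR adjusted p = 0.136). The kinase gene Rock1, which acts downstream of RhoA on actin and myosin, was lower in SIRMu-1 at -0.63 ± 0.12 (edgeR adjusted p = 0.00118) and in rMC-1 at -1.32 ± 0.14 (edgeR adjusted p = 6.37e-06).

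Gata6, a transcription factor of vascular smooth muscle, was higher in both lines, by 1.8 ± 0.39 in SIRMu-1 and 2.44 ± 0.43 in rMC-1 (edgeR adjusted p = 0.00319 and 0.000346). Hey2, a repressor that acts downstream of Notch, was higher in SIRMu-1 by 3.99 ± 0.77 (edgeR adjusted p = 0.00143) and in rMC-1 by 2.26 ± 0.76 (edgeR adjusted p = 0.0188). Without primary replicate 4 these Hey2 values were 5.05 and 3.32. The rMC-1 call for Hey2 was lost without primary replicate 1 (2.04, adjusted p = 0.0502), without rMC-1 replicate 2 (1.93, adjusted p = 0.0615) and with codes summed (2.04, adjusted p = 0.0602).

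The non-muscle actin and myosin list held 20 genes, all tested. In rMC-1, 8 were lower and 4 higher than in primary cultures, with a median of -0.22 beside -0.15, where 38.9% of all genes were lower and 31.9% higher, but with library totals 3 were lower and 9 higher. In SIRMu-1, 1 was lower and 5 higher, with a median of 0.1 beside -0.02, where 24.4% and 21.7% of all genes were. The 5 became 2 without primary replicate 2 or without SIRMu-1 replicate 1, 3 or 4, and 3 without primary replicate 1 or 3. The focal adhesion adaptor Pxn was higher in both lines, by 1.05 ± 0.16 in SIRMu-1 and 2.13 ± 0.18 in rMC-1 (edgeR adjusted p = 0.000303 and 1.12e-06). Cfl1, the actin-severing cofilin, was higher in SIRMu-1 by 1.3 ± 0.15 (edgeR adjusted p = 5.01e-05). Ezr, which links actin to the membrane, was higher in rMC-1 by 3.26 ± 0.48 (edgeR adjusted p = 8.84e-05), as was Arpc5 of the actin-branching complex, by 0.68 ± 0.13 (edgeR adjusted p = 0.000533). Lower in rMC-1 were the actin monomer binder Tmsb4x (-1.63 ± 0.29), talin gene Tln1 (-0.92 ± 0.17) and the capping protein gene Capzb (-0.9 ± 0.15), with edgeR adjusted p = 0.000346, 0.000451 and 0.00024.

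Matrix and surface genes of myofibroblasts showed the rMC-1 difference in every tested gene. Against primary cultures, rMC-1 was lower in all 17, with a median of -4.14 beside -0.15 for all genes, of which 38.9% were lower. Cthrc1, Fap, Col1a2 and Cdh11 held 0, 1, 12 and 15 counts in rMC-1. They could pass the filter only through libraries outside rMC-1, where they are higher. Col1a2 was low in every group, with 259 counts in SIRMu-1 and 162 in primary cultures, and the reason was not tested. In SIRMu-1, 6 were lower and 1 higher, with a median of -0.62 beside -0.02, where 24.4% and 21.7% of all genes were. Set against rMC-1, SIRMu-1 was higher in 13 and lower in 0, where 32.7% of all genes were higher and 30.5% lower. With codes summed, the SIRMu-1 counts against primary cultures were 3 lower and 0 higher. Cdh11, a cadherin of mesenchymal cells, averaged 0.132 ± 0.079 CPM in rMC-1 and 587 ± 258 CPM in primary cultures (SD, n = 3 and 4; log2 fold change -12.14 ± 0.59, edgeR adjusted p = 3.34e-08). Postn, the matrix protein periostin, averaged 3.87 ± 3.01 CPM in rMC-1 and 9469 ± 5077 CPM in primary cultures, which gave -11.26 ± 1.07 on the log2 scale (edgeR adjusted p = 3.09e-06), and -12.04 when rMC-1 replicate 1 was left out. The growth factor receptor gene Pdgfra was lower in rMC-1 at -6.11 ± 0.9 (edgeR adjusted p = 8.44e-05), and at -5.25 without primary replicate 3.

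In SIRMu-1 the collagen-binding integrin gene Itga11 was lower than in primary cultures at -3.12 ± 0.53 (edgeR adjusted p = 0.000639). Itgb5, an integrin subunit, was lower there at -1.07 ± 0.21 (edgeR adjusted p = 0.00183). Thbs1, encoding thrombospondin 1, was higher in SIRMu-1, at 35797 ± 14931 CPM against 16367 ± 3139 CPM in primary cultures (SD, n = 5 and 4; 1.13 ± 0.28, edgeR adjusted p = 0.00658). The calls for Itgb5 and Thbs1 were lost with codes summed (adjusted p = 0.0501 and 0.0558), and that for Thbs1 with only the SIRMu-1 libraries that had the drugs (0.69, adjusted p = 0.0674).

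Markers of pericytes and mural cells, which carry contractile genes, were mostly lower in rMC-1, as the members were. In SIRMu-1 against primary cultures their median log2 fold change was -1.65, where that of the members was 0.26. The 12 pericyte and mural markers summed to 1015 to 1705 CPM in SIRMu-1, 120 to 178 CPM in rMC-1 and 1242 to 2781 CPM in primary cultures. Of 8 tested, rMC-1 was lower than primary cultures in 7 and higher in 0, where 38.9% of all genes were lower and 31.9% higher. SIRMu-1 was lower in 4 and higher in 0, where 24.4% of all genes were lower and 21.7% higher. Rgs4 and Cspg4, with 2 and 30 counts in rMC-1, could pass the filter only through libraries outside rMC-1. The sum was mainly Pdgfrb, at 734 to 1176 CPM in SIRMu-1, 68.8 to 118 CPM in rMC-1 and 830 to 2538 CPM in primary cultures, with a log2 fold change in rMC-1 of -4.11 ± 0.4 (edgeR adjusted p = 3.81e-06). Cspg4 (NG2) was lower in rMC-1 at -8.42 ± 1.29 (edgeR adjusted p = 0.000115; -7.56 without primary replicate 1) and Notch3 at -3.09 ± 0.71 (edgeR adjusted p = 0.00205). Single markers of the list differed widely in level. Kcnj8 had 0 counts in both lines and averaged 0.35 CPM in primary cultures. Rgs5 lay at 0.0 to 0.263 CPM in SIRMu-1 and 0.0 to 0.057 CPM in rMC-1. In primary replicates 1 to 4 it was 0.71, 19.5, 0.224 and 0.308 CPM. Abcc9, Higd1b, Ndufa4l2 and Cox4i2 averaged at most 1.63 CPM in any group. In SIRMu-1, rMC-1 and primary cultures, Mcam averaged 49.0, 49.6 and 311 CPM and Cspg4 294, 0.239 and 85.1 CPM. Rgs4 averaged 35.7, 0.019 and 55.4 CPM in that order. The part of such cells in the contractile levels was not tested.

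Sarcomere genes of striated muscle stayed low. The 26 measured genes summed to 10.7 to 143 CPM in SIRMu-1, 6.43 to 7.46 CPM in rMC-1 and 28.3 to 112 CPM in primary cultures, and 9 of them had 0 counts in rMC-1, among them Myog and Myod1. Of 16 tested, 9 were lower and 1 higher in rMC-1 against primary cultures, and 8 lower and 0 higher in SIRMu-1. Of all genes, 38.9% were lower and 31.9% higher in rMC-1, and 24.4% and 21.7% in SIRMu-1. Among the tested genes, Actn2, Myh7, Tnni1, Myh3, Actn3 and Actc1 held 0, 0, 1, 2, 15 and 16 counts in rMC-1. Those genes could pass the filter only through libraries outside rMC-1. Actn2, with 3 counts in SIRMu-1, could pass it only through primary libraries. Endothelial markers summed to 36.1 to 58.3 CPM in SIRMu-1, 7.69 to 11.5 CPM in rMC-1 and 12.4 to 34.6 CPM in primary cultures, with Cldn5 at 0 counts in all 3 groups. The 9 measured pigment epithelium markers summed to 2.7 to 4.98 CPM in SIRMu-1, 12.1 to 13.8 CPM in rMC-1 and 18.3 to 41.3 CPM in primary cultures, with Otx2 at 0 counts in all 3. In both lines nearly all of it was Mitf, at 2.7 to 4.8 CPM in SIRMu-1 and 12.1 to 13.7 CPM in rMC-1. Microglia and macrophage markers summed to 169 to 221 CPM in SIRMu-1, 2.32 to 3.85 CPM in rMC-1 and 221 to 432 CPM in primary cultures, with Aif1, Cx3cr1, P2ry12, C1qa and C1qb at 0 counts in both lines. In SIRMu-1 and primary cultures that sum was almost wholly Tmem119, at 168 to 216 CPM in SIRMu-1, 0.0412 to 0.342 CPM in rMC-1 and 215 to 420 CPM in primary cultures, and each of the other markers averaged at most 3.11 CPM in any group. Their part in the member levels was not tested either.

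Across the 12 libraries, the patterns of the members themselves ran with that of Acta2 to different degrees. Pearson's r of log2 CPM with Acta2 was 0.935 for Tagln, 0.897 for Cnn1, 0.894 for Tpm2, 0.887 for Myocd, 0.843 for Myl9 and 0.783 for Tpm1. It was 0.259 for Myh11, which at 5.78 to 9.44 CPM in SIRMu-1 lay below all primary libraries on the TMM scale. It was -0.0623 for Des, which was barely expressed anywhere. Both were highest in primary replicate 4. Many other genes ran as closely with Acta2: among 7871 with enough reads, Tagln would rank 14, Cnn1 139, Tpm2 154, Myocd 200, Myl9 539 and Tpm1 1047. Of the 7871, the closest to Acta2 were Uckl1 (0.979), Pter (0.951), Lims2 (0.948), Tm2d1 (0.945) and LOC100365921 (0.942). Lims2 averaged 57.8, 0.367 and 38.9 CPM in SIRMu-1, rMC-1 and primary cultures, and Uckl1 49.5, 22.2 and 48.8 CPM. All 12 points share the gap between rMC-1 and the other groups, and the coefficients are descriptions with no test.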

How the data were processed

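The authors deposited raw counts, 1 table per library with 17315 genes. The submitters' processing notes name STAR 2.5.3a, cutadapt 1.8.1, edgeR 3.18.1 and build rn6; their roles, the annotation and the strand setting are not given there or in the labels. Per the labels' protocols, libraries came from polyadenylated RNA with a stranded kit. Reads in no gene, 37.0% to 44.21% of a library, were not part of library sizes or tests. A deposited log2 CPM table was not used.

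The test was edgeR 4.0.16 in R 4.3.3. Its filter on the 3 groups left 11321 genes, and TMM factors scaled the libraries. The comparisons came from a quasi-likelihood fit of 3 group means over 12 libraries (9 residual degrees of freedom), with Benjamini-Hochberg adjustment over all genes tested. For the drugs, SIRMu-1 was split into 2 and 3 libraries (8 residual degrees of freedom, 11636 genes). Intervals on counts cover counting error only. The steps were tested on simulated data. Alternatives were library totals, DESeq2 1.42.0 size factors and its Wald test, 2 other filters, only the groups compared, the replicate number as a block, each library left out, SIRMu-1 split by drugs, and libraries that share a file-name code, whose meaning is not given, summed to 7 samples.

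The members and the 10 gene lists were chosen with earlier results of these data known. From each list up to 3 called genes per direction were named, with a mean log2 CPM of at least 3, no overlap between groups and the largest change. 1 gene that this rule names is not reported here, and marker lists of other cell types are mainly given as wholes. Likeness to Acta2 was Pearson's r of log2 CPM (prior count 2). Of 181 list genes, 169 were in the tables, and the other 12, such as Mkl1, Mkl2 and Cnn2, were not analysed here. Levels of different genes were not compared, since gene lengths on rn6 were not used here. Genes overlapping on opposite strands have uncertain counts.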

Additional observations from a re-analysis of the deposited data

Results flagged for a closer look

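In 4 of 18 groups of 4 or 5 libraries looked at, 1 library lay farther from the rest than Dixon's 95% limit for the gap to the nearest library over the whole range; chance gives about 1 in 20. Acta2 in primary replicate 1 was 8634 CPM with 5335 CPM next (gap over range 0.831). Tagln in SIRMu-1 replicate 5 was 1779 CPM with 4791 CPM next (0.752). In primary replicate 4, Myh11 was 151 CPM with 21.9 CPM next (0.915), and Des was 1.72 CPM with 0.402 CPM next (0.865).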

How the results depend on the processing

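In rMC-1 against primary cultures, 7 to 8 of the 9 members were called lower under every alternative run, with Tpm1 the member lost. In SIRMu-1 against rMC-1, 6 to 7 were called higher under every alternative. In SIRMu-1 against primary cultures, 2 were called lower, except 1 with only the SIRMu-1 libraries that had the drugs (Myh11 lost) and 0 with codes summed. Members called higher numbered 0, and 1 without primary replicate 1 or without primary replicate 4, so leaving out a library gave 0 to 1, and likewise 0 to 1 in rMC-1 against primary cultures. For SIRMu-1 against primary cultures, the direction turned with only the drug libraries for Cnn1 (-0.11) and Tagln (-0.04), with the replicate block for Tpm1 (0.04) and Tpm2 (0.01), and without SIRMu-1 replicate 5 for Tpm1 (0.02; -0.15 to 0.02 over libraries left out). None of these was called either way. Of the other genes named, it turned for Actg2 with the replicate block (0.50) and without primary replicate 1 (0.97; -1.16 to 0.97), and for Lmod1 without primary replicate 3 (-0.19), primary replicate 4 (-0.02) or SIRMu-1 replicate 1 (-0.06), also uncalled. For the drugs it turned without SIRMu-1 replicate 5 for Cnn1 (0.07; -1.81 to 0.07 over libraries left out) and Tagln (0.13; -1.55 to 0.13), and for Myh11 with library totals (0.07) or without SIRMu-1 replicate 3 (0.29) or 4 (0.05; -0.42 to 0.29). Tpm1 in SIRMu-1 against rMC-1 was -0.03 with library totals, and was called with DESeq2 (adjusted p = 0.038), only the libraries without drugs (0.0143), the replicate block (0.00604) and without SIRMu-1 replicate 5 (0.00961), and Myh11 there with only the groups compared (0.0402).

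Library totals moved the median of all genes by 0.47 in rMC-1 against primary cultures and by -0.43 in SIRMu-1 against rMC-1. Relative to that median Tpm1 was -0.35 under both scalings. With library totals, 61.9% of called genes were higher in rMC-1, against 45.1% with TMM factors, and 30.8% were higher in SIRMu-1 than in rMC-1, against 51.7%. The numbers called there were 2324 higher and 5227 lower, against 3702 and 3455. In SIRMu-1 against primary cultures, 2454 genes were higher and 2766 lower, against 1619 and 1796 with only the drug libraries and 1466 and 1707 with codes summed. For the drugs, DESeq2 called 3 genes higher and 1 lower, and edgeR called 0 to 2 higher when a library was left out. The cause of these changes was not tested.

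Replicate numbers do not pair the libraries. Deviations of same-numbered libraries correlated at -0.063 to 0.098 over 10 pairs, others at -0.156 to 0.127, and 4 of 11 libraries correlated best with their own number. With the replicate block, 2 members were lower in SIRMu-1 and 8 in rMC-1 against primary cultures, and 7 were higher in SIRMu-1 than in rMC-1. With it, 2379 genes were higher and 2594 lower in SIRMu-1, and the Srf call there was lost (adjusted p = 0.0842). No promoter window of a member held an exact CArG box, and 2 did with 1 mismatch. Depth limits Des, at 5 to 45 reads per library, and Myocd in rMC-1, at 1 or 2.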
